A study of Homo sapiens with 6 samples.

Results

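The mitotic genes described here are 36 genes named for work in cell division, from the cyclin-dependent kinase that starts mitosis to the proteins that close the cleavage furrow. They were picked by symbol from the 17318 genes listed in each library, and all 36 were found. SNU216 is an established human gastric cancer cell line. In 3 libraries the cells had been transfected for 48 h with an siRNA against OXTR, the oxytocin receptor gene (siOXTR, n = 3), and in the other 3 with a control siRNA for the same time (siControl, n = 3). Both groups were thus transfected, no untransfected cells were analysed here, the siRNA sequences were not given in the sources used here, and all libraries come from a single cell line. Whether the 3 libraries of a group are separate cultures is not stated in the labels. The p-values therefore measure only library-to-library spread, which may be technical. The title of the series concerns the interplay of OXTR and YAP in gastric cancer progression, and the question asked here is whether the mRNA of the mitotic machinery differed after OXTR knockdown.

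The median change of the mitotic genes was close to that of genes at large. Their median log2 fold change, siOXTR minus siControl, was 0.12, against 0.13 for all 11550 tested genes. The ratios of the members ran from 0.885 to 1.25. The largest rises were those of AURKB, BUB3 and CCNB2, and the single fall was that of KIF23. With the deposited FPKM, 17 members rose and 1 fell (limma, adjusted p under 0.05), which is 47.2% and 2.78% of the list. Among all tested genes 42.2% were higher and 17.6% lower by the same rule, so the share of rises was near the background and the share of falls below it. After TMM scaling, which scales libraries by a trimmed mean of gene ratios, 3 members were higher and 5 lower, against 18.3% and 24.9% of all tested genes, and the median of the 36 was -0.01. That scaling moved the median of all tested genes by -0.12, about the size of most of the members' changes. Without siOXTR replicate 2 or siOXTR replicate 3 the deposited values gave 10 and 9 rises in place of 17. Over all tested genes the same fits gave 3976 and 4066 rises in place of 4869. After TMM scaling, leaving out each library in turn gave 0 to 3 higher and 4 to 5 lower. Bulk RNA does not tell a change in the share of dividing cells from a change in mRNA per dividing cell.

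Mitosis begins when CDK1 bound to cyclin B is activated by CDC25 phosphatases. Polo-like and Aurora kinases then build the spindle, and the spindle checkpoint holds back the anaphase-promoting complex (APC/C), a ubiquitin ligase, until every chromosome is attached. The APC/C with CDC20 marks securin and cyclin B for destruction, sister chromatids part, and a midzone of microtubules directs cytokinesis. The genes are transcribed mainly in G2 and mitosis. The DREAM complex represses them in resting cells, and B-MYB with the MuvB core and FOXM1 activates them. MuvB binds a promoter element called the cell cycle homology region (CHR), often downstream of CCAAT boxes bound by NF-Y. Their summed mRNA is widely read as a proliferation signature in tumours.

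The labels were checked first. OXTR had 4.76, 4.65 and 5.34 FPKM in siOXTR libraries, against 39.4, 38.9 and 39.0 FPKM in siControl libraries (log2 fold change -2.76, SE 0.061, limma adjusted p = 6.39e-11). FPKM is the number of fragments mapped to a gene, scaled by transcript length and by all mapped fragments. Across tested genes Pearson's r lay between 0.974 and 0.976 for a siOXTR with a siControl library, and between 0.995 and 0.998 within a group. The keratin genes KRT8 and KRT18, which mark simple epithelium, were at 3157 ± 65.3 and 2439 ± 66.8 FPKM in siOXTR libraries and at 2877 ± 206 and 2194 ± 144 FPKM in siControl libraries (SD, n = 3 each). They did not pass. Of the 6 genes in that list 3 fell, with CDH1, EPCAM and CLDN4 at log2 fold changes of -1.88, -0.997 and -0.41, and 1 rose, KRT19 at 0.27, which was not called after TMM scaling. The 7 fibroblast markers found in the files summed to between 0.700 and 0.870 FPKM in siOXTR libraries and between 1.66 and 2.10 FPKM in siControl libraries. The 7 blood and endothelial markers found summed to between 8.81 and 9.49 FPKM in siOXTR libraries and between 9.80 and 11.3 FPKM in siControl libraries, most of it CD68, and CD3E was listed at 0 in all siOXTR libraries. Their part in the results below was not tested.

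Promoters of the mitotic genes were searched for the 2 elements. RefSeq windows of 300 bases on GRCh38.p14, from 250 bases before to 50 bases after each listed transcript start, were available for 29 members. The 36 windows of these genes, some of which overlap where a gene has several starts, were searched on both strands for the CHR as TTTGAA and for the NF-Y box as CCAAT. The CHR was found in 23 windows (63.9%), against 10.3% of the 13818 windows of tested genes and 15.2% of all 35116 windows. The NF-Y box was found in 29 windows (80.6%), against 35.3% of the windows of tested genes. Both occurred in 55.6% of the members' windows, against 4.24% of the windows of tested genes. The 49 windows of the DNA replication and G1/S genes held the NF-Y box in 59.2% and the CHR in 4.08%.

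Promoters of 6 members are printed because these genes mark the ends of the range of changes. CCNB2 and AURKB were the highest with a promoter entry and were called higher under both scalings. KIF23, CENPF, ANLN and MKI67 were the lowest after TMM scaling. Capitals mark each CHR or NF-Y box match on either strand, and the start lies 250 bases into each run. The windows are chr15:59104896-59105195 (plus strand) for CCNB2, chr17:8210176-8210475 (minus) for the first listed start of AURKB, chr15:69414099-69414398 (plus) for KIF23, chr1:214602945-214603244 (plus) for CENPF, chr7:36389612-36389911 (plus) for ANLN and chr10:128126374-128126673 (minus) for MKI67.
CCNB2: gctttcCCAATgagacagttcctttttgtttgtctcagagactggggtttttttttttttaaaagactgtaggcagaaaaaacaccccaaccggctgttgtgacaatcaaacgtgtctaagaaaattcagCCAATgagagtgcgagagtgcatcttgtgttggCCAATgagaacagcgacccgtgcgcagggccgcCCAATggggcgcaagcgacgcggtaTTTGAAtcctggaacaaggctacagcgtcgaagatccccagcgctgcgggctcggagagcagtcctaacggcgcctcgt
AURKB: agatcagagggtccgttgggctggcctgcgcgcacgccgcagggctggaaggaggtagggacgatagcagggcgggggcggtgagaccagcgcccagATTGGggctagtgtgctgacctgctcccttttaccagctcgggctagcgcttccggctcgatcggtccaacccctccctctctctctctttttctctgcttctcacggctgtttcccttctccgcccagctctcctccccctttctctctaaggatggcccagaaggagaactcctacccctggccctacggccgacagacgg
KIF23: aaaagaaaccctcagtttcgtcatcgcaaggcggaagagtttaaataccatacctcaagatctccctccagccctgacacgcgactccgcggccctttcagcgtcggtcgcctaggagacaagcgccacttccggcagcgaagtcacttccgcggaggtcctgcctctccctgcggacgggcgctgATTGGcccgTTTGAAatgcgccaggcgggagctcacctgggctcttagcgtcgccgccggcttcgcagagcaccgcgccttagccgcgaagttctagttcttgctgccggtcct
CENPF: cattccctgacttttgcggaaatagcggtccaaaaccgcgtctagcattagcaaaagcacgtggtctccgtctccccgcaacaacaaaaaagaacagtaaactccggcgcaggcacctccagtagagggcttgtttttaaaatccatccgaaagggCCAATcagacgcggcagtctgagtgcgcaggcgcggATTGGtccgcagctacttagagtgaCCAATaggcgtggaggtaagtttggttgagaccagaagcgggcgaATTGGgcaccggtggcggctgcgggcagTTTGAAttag
ANLN: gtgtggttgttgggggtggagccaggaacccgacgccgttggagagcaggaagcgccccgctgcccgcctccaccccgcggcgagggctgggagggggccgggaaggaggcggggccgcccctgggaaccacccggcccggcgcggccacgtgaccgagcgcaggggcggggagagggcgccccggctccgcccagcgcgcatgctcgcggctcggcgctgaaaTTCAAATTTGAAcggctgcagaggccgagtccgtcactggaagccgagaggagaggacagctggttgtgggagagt
MKI67: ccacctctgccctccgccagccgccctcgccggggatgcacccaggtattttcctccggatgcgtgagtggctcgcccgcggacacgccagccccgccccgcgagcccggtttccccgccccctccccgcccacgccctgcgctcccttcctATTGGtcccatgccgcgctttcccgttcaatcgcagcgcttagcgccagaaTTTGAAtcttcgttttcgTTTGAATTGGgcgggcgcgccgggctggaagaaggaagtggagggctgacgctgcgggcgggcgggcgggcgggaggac
CCNB2 has 4 NF-Y boxes and 1 CHR between them and the start, whereas the AURKB window has 1 NF-Y box and no CHR match. The other AURKB window overlaps the printed one and has the same counts. Sequence outside these windows was not searched, so a CHR elsewhere near AURKB would be missed. Each of the 4 genes with low values holds the CHR, with 2 matches each in ANLN and MKI67 and with the CENPF match after the start. The NF-Y box was found in 3 of these 4 windows and not in that of ANLN. A match of letters is a description and not a bound site.

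**Figure D1:**
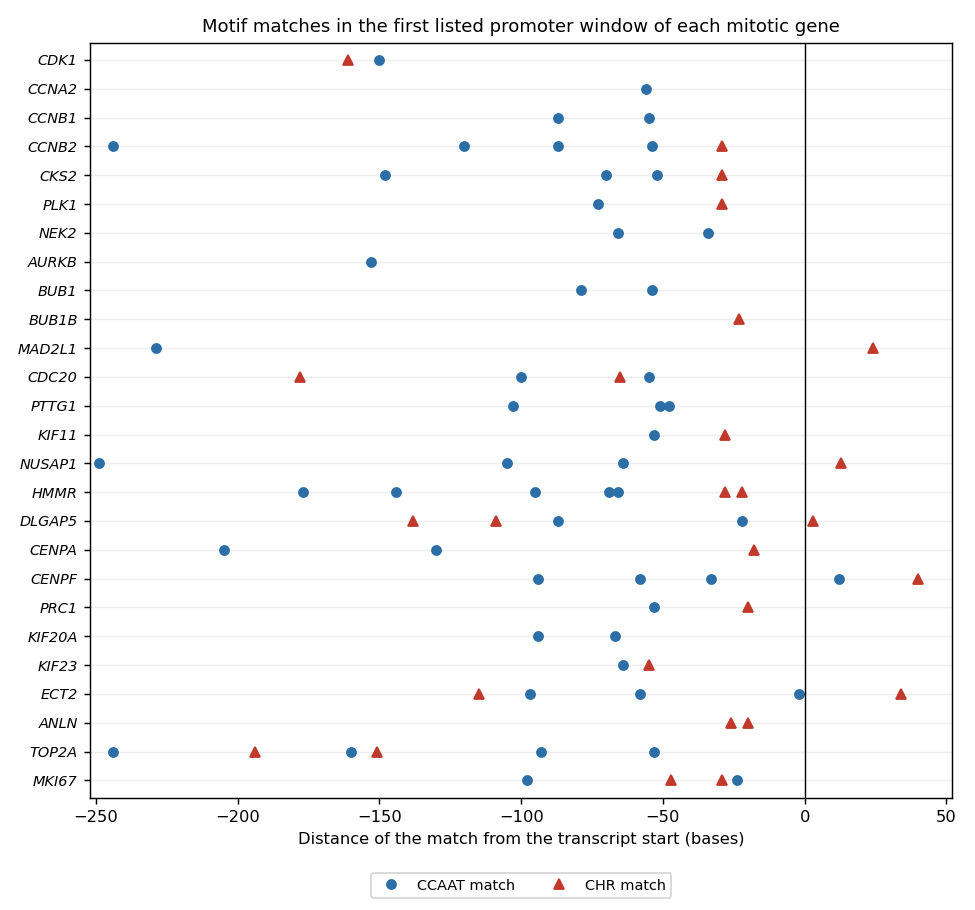
Positions of CHR (triangles) and NF-Y box (circles) matches on either strand in the first listed promoter window of each mitotic gene, in bases from the transcript start at 0. Of 27 CHR matches 14 lie within the 60 bases before the start, and of 53 NF-Y box matches 39 lie between 120 and 20 bases before it, while CDC25C, KIF2C and CENPE had no match in that window and are not drawn.

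In the members with the CHR in any window (20 genes) the median change was 0.08 in log2, with 5 higher and 1 lower. The 9 members with windows but without it had a median of 0.16, with 7 higher and none lower. Members counted as without the CHR had no exact TTTGAA match on either strand. Variant forms of the element were not searched, so these genes may still hold one. After TMM scaling the medians were -0.05 with the CHR, with 1 higher and 4 lower, and 0.03 without it, with 1 higher and none lower. For the NF-Y box the median was 0.11 in the 25 members with it, with 11 higher and 1 lower, and 0.08 in the 4 without it, with 1 higher. After TMM scaling these medians were -0.02 and -0.04, with 2 higher and 3 lower among members with the box and 1 lower among those without. Among all tested genes 42.2% were higher and 17.6% lower as deposited, and 18.3% and 24.9% after TMM scaling. The tested genes at large were not split by motif. The split by motif was not matched for transcript length, with which the changes of the 36 were also correlated (Pearson's r -0.52, given below). These are counts within the list and were not tested.

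All 36 members passed the filter of a mean of at least 1 FPKM. Their means over the 6 libraries spanned 7.71 FPKM for CENPE to 386 FPKM for UBE2C, and they ranked between 150 and 7722 among the 17318 genes. Summed, they made up 0.618%, 0.616% and 0.617% of the FPKM in siOXTR libraries, against 0.605%, 0.589% and 0.606% in siControl libraries. In 21 members every siOXTR library lay above every siControl library, in 2 every one lay below, and in 13 the groups overlapped. Among all tested genes the groups did not overlap in 45.2% upwards and 19.2% downwards. After TMM scaling the counts were 7 above, 9 below and 20 overlapping, against 24.1% and 29.1% of all tested genes.

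**Figure D2:**
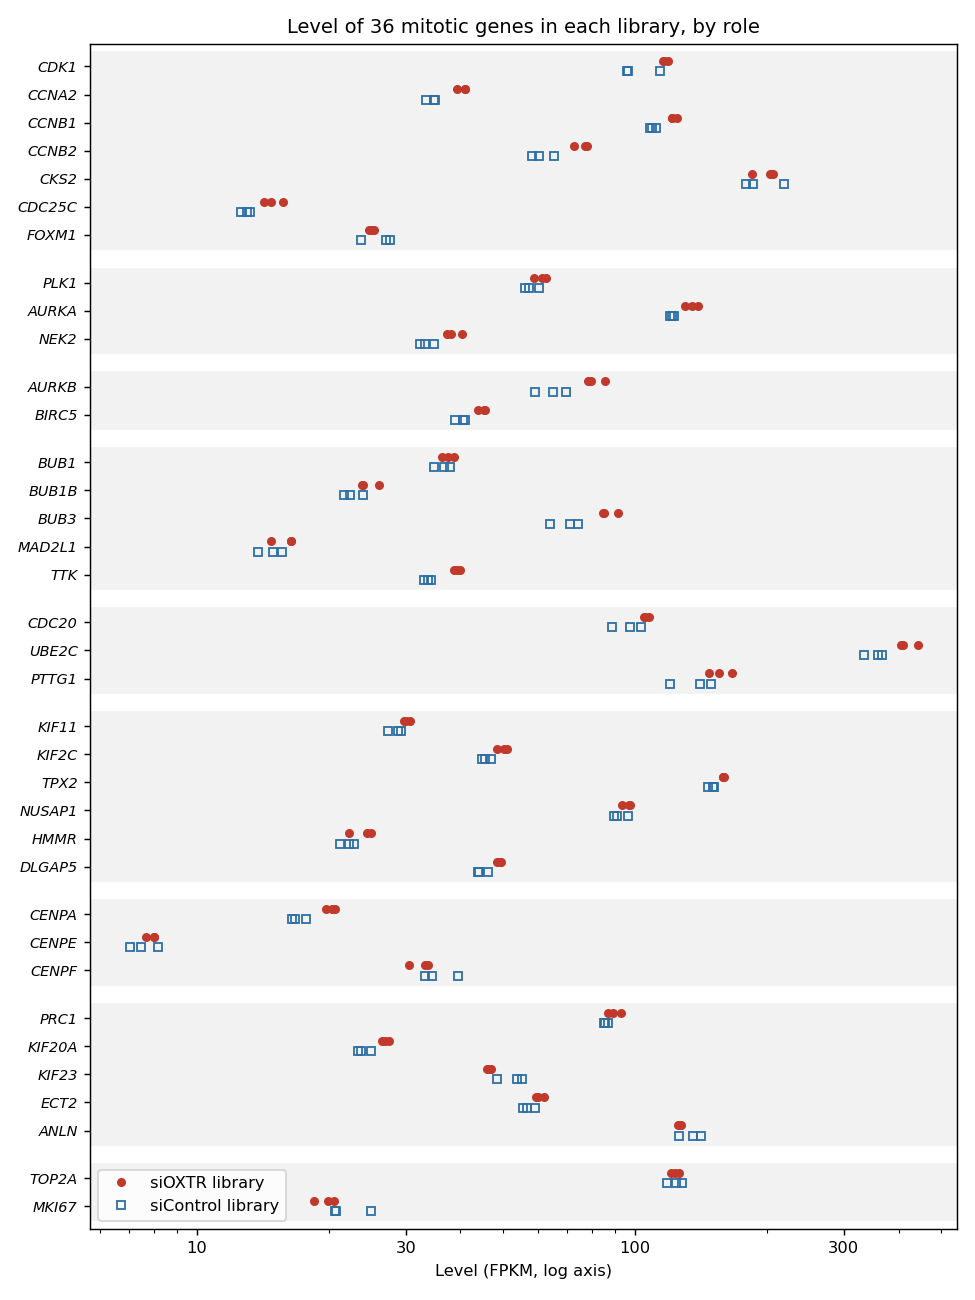
Level of each of the 36 mitotic genes in FPKM on a log axis, grouped by role, with 1 filled circle per siOXTR library and 1 open square per siControl library. UBE2C has the highest level (419 against 353 FPKM in the means) and CENPE the lowest, and in most rows the circles lie slightly to the right of the squares.

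The kinase and cyclins that start mitosis were slightly higher as deposited. CCNB2, which encodes cyclin B2, a partner of CDK1, had 72.6, 77.9 and 77.0 FPKM in siOXTR libraries, against 58.2, 60.3 and 65.5 FPKM in siControl libraries. The groups did not overlap, and the log2 fold change was 0.30 (SE 0.058, limma adjusted p = 0.000881). After TMM scaling it was 0.17 (adjusted p = 0.0369), and adjusted p was between 0.0107 and 0.156 with each library left out in turn. CCNB1, the main mitotic cyclin, had 122, 122 and 125 FPKM in siOXTR libraries, against 108, 109 and 112 FPKM in siControl libraries. The siOXTR libraries were all higher, by a ratio of 1.12 (log2 fold change 0.16, limma adjusted p = 0.0136). CCNA2, which encodes the cyclin of S phase and G2, had 40.9, 40.9 and 39.2 FPKM in siOXTR libraries, against 34.8, 33.4 and 35.0 FPKM in siControl libraries. Its groups were also apart (log2 fold change 0.22, adjusted p = 0.00261, limma). CDK1 itself had 117, 119 and 116 FPKM in siOXTR libraries, against 96.2, 96.0 and 114 FPKM in siControl libraries. Replicate 3 of siControl came close to the siOXTR libraries. The call (log2 fold change 0.20, adjusted p = 0.0203, limma) was lost without siOXTR replicate 2, siControl replicate 1 or siControl replicate 2, with adjusted p up to 0.0828. The CCNB1 call was lost without siOXTR replicate 3 (limma adjusted p = 0.0599). After TMM scaling CCNB1, CCNA2 and CDK1 were at 0.02, 0.09 and 0.07 and were not called (limma adjusted p = 0.711, 0.161 and 0.439).

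CDC25C, the phosphatase gene that activates CDK1, had 14.2, 14.8 and 15.7 FPKM in siOXTR libraries, against 12.6, 13.3 and 13.1 FPKM in siControl libraries, and rose by a log2 fold change of 0.19. CKS2, whose small product docks on CDK1, had 186, 207 and 203 FPKM in siOXTR libraries, against 186, 180 and 219 FPKM in siControl libraries. It overlapped fully and did not pass (log2 fold change 0.03, 95% interval -0.13 to 0.19). FOXM1, the transcription factor gene that drives many of the others, had 25.4, 25.0 and 24.7 FPKM in siOXTR libraries, against 27.6, 27.1 and 23.7 FPKM in siControl libraries. Its siControl libraries lay on both sides of the siOXTR libraries (log2 fold change -0.05, 95% interval -0.19 to 0.08). After TMM scaling FOXM1 was called lower (log2 fold change -0.18, limma adjusted p = 0.0321), a call that 1 of 6 fits with a library left out retained. Of these 7 genes 5 rose as deposited (71.4%) and none fell, against 42.2% and 17.6% of all tested genes. After TMM scaling 1 was higher (CCNB2) and 1 lower (FOXM1), 14.3% each, against 18.3% and 24.9%. The same background shares apply to the counts of the roles below. Each role holds few genes, and no role was tested as a group.

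Of the 3 kinases of spindle assembly 2 rose as deposited and none was called after TMM scaling. AURKA, the centrosomal Aurora kinase gene, had 135, 130 and 140 FPKM in siOXTR libraries, against 121, 122 and 123 FPKM in siControl libraries. The siOXTR libraries were all higher (log2 fold change 0.15, limma adjusted p = 0.0241), but with TMM scaling the change was 0.01 in log2. NEK2, which encodes a kinase that helps centrosomes part, was at 38.6 ± 1.53 FPKM in siOXTR libraries and 33.5 ± 1.32 FPKM in siControl libraries (SD, n = 3 each; log2 fold change 0.20, limma adjusted p = 0.00818). PLK1, the Polo-like kinase gene, had 62.8, 61.4 and 59.0 FPKM in siOXTR libraries, against 57.2, 60.5 and 56.1 FPKM in siControl libraries. Its groups overlapped and it did not pass (log2 fold change 0.07, 95% interval -0.04 to 0.19), and after TMM scaling the value was -0.06.

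The chromosomal passenger complex corrects faulty attachments between kinetochores and microtubules. AURKB, its kinase gene, had 79.2, 78.3 and 85.5 FPKM in siOXTR libraries, against 65.1, 69.5 and 59.1 FPKM in siControl libraries. This was the largest rise of the 36, with a ratio of 1.25 (log2 fold change 0.32, SE 0.065, limma adjusted p = 0.00113). After TMM scaling it was 0.19 (adjusted p = 0.0305, and between 0.0127 and 0.146 with each library left out). BIRC5, which encodes the survivin subunit, was at 44.9 ± 0.921 FPKM in siOXTR libraries and 40.1 ± 1.06 FPKM in siControl libraries (SD, n = 3 each) and rose by a log2 fold change of 0.16, which was 0.03 after TMM scaling. The other 2 subunit genes listed, INCENP and CDCA8, had no call as deposited and were both lower after TMM scaling, with log2 fold changes of -0.26 to -0.22.

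Among the spindle checkpoint genes BUB3 and TTK rose. BUB3, whose product brings BUB1 and BUBR1 to kinetochores, had 85.2, 84.7 and 91.5 FPKM in siOXTR libraries, against 64.0, 71.2 and 74.2 FPKM in siControl libraries. All siOXTR libraries were higher (log2 fold change 0.32, SE 0.062, limma adjusted p = 0.00102), and after TMM scaling the value was 0.19 (adjusted p = 0.0331, between 0.0142 and 0.153 with each library left out). TTK, the checkpoint kinase gene also called MPS1, had 39.8, 39.3 and 38.6 FPKM in siOXTR libraries, against 33.1, 33.8 and 34.2 FPKM in siControl libraries, with a log2 fold change of 0.21 as deposited and 0.08 after TMM scaling. It was called as deposited in all 6 fits that left out a library, as were BUB3, CCNA2, CCNB2, AURKB, UBE2C and CENPA, 7 genes of the 18 called. BUB1, BUB1B (which encodes BUBR1) and MAD2L1 did not pass, with log2 fold changes of 0.04, 0.11 and 0.09, and after TMM scaling those values were -0.09, -0.02 and -0.03.

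Genes of the APC/C switch were higher in level than most members. UBE2C, the ubiquitin-conjugating enzyme gene that works with the APC/C, had 405, 443 and 408 FPKM in siOXTR libraries, against 334, 359 and 366 FPKM in siControl libraries. All siOXTR libraries were higher (log2 fold change 0.25, SE 0.059, limma adjusted p = 0.00365), and with TMM scaling that change was 0.11 (adjusted p = 0.159). PTTG1, the securin gene, had 148, 166 and 156 FPKM in siOXTR libraries, against 120, 141 and 149 FPKM in siControl libraries. Its groups overlapped although it passed (log2 fold change 0.20, limma adjusted p = 0.0401), and since PTTG1 has near-identical copies elsewhere in the genome its value is uncertain. The PTTG1 call was lost after TMM scaling (0.06, limma adjusted p = 0.53) and in 4 of 6 fits that left out a library, those without siOXTR replicate 2 or 3 or siControl replicate 1 or 2, with adjusted p up to 0.17. CDC20, the APC/C activator gene, was at 106 ± 1.49 FPKM in siOXTR libraries and 96.6 ± 7.37 FPKM in siControl libraries (SD, n = 3 each). It did not overlap between groups but missed the threshold (log2 fold change 0.13, limma adjusted p = 0.0698).

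Spindle motors and microtubule binders had log2 fold changes of 0.06 to 0.13, and 2 of 6 passed. KIF11, the motor that pushes spindle poles apart, had 29.7, 30.7 and 30.1 FPKM in siOXTR libraries, against 29.2, 27.3 and 28.8 FPKM in siControl libraries (log2 fold change 0.08, 95% interval -0.03 to 0.20). TPX2, which activates Aurora A on the spindle, had 160, 159 and 159 FPKM in siOXTR libraries, against 151, 147 and 152 FPKM in siControl libraries (log2 fold change 0.09, 95% interval -0.02 to 0.19). As deposited, both were slightly above the siControl libraries in every siOXTR library and neither passed. After TMM scaling the groups overlapped for KIF11, and for TPX2 every siOXTR library lay below every siControl library. KIF2C, a kinesin that takes microtubules apart, and DLGAP5, a binder of kinetochore fibres, rose by log2 fold changes of 0.13 each, and each call held in 1 of 6 fits with a library left out. NUSAP1 and HMMR, both microtubule binders, missed the threshold at log2 fold changes of 0.06 and 0.11. After TMM scaling the 6 genes lay between -0.08 and 0.00 and none was called.

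Of the 3 centromere genes 1 rose as deposited, and after TMM scaling another was called lower. CENPA, which encodes the histone H3 variant that marks centromeres, had 20.4, 20.7 and 19.7 FPKM in siOXTR libraries, against 17.8, 16.5 and 16.8 FPKM in siControl libraries. The siOXTR libraries were all higher (log2 fold change 0.24, SE 0.056, limma adjusted p = 0.00296), and after TMM scaling the value was 0.11 (adjusted p = 0.122). CENPF, which encodes a very large kinetochore protein, had 33.1, 30.5 and 33.8 FPKM in siOXTR libraries, against 39.5, 34.4 and 33.2 FPKM in siControl libraries. As deposited it overlapped and did not pass (log2 fold change -0.13, limma adjusted p = 0.124, but -0.18 and 0.0482 without siControl replicate 3), and after TMM scaling it was called lower (-0.26, adjusted p = 0.00889). CENPE, the kinetochore kinesin gene, was at 7.87 ± 0.199 FPKM in siOXTR libraries and 7.54 ± 0.566 FPKM in siControl libraries (SD, n = 3 each) and did not pass (log2 fold change 0.06, and -0.06 after TMM scaling).

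Cytokinesis genes included the single fall. KIF23, which encodes the kinesin of the centralspindlin complex at the midzone, had 46.6, 45.9 and 47.0 FPKM in siOXTR libraries, against 53.9, 48.4 and 55.3 FPKM in siControl libraries. All siOXTR libraries were lower (log2 fold change -0.17, SE 0.058, limma adjusted p = 0.0235). Leaving out a library lost this call in 5 of 6 fits, namely those without any one siOXTR library or without siControl replicate 1 or 3, with adjusted p up to 0.0794. After TMM scaling KIF23 was at -0.30 (adjusted p = 0.00123) and was called in all 6 such fits. ANLN, which encodes the furrow scaffold anillin, had 125, 127 and 127 FPKM in siOXTR libraries, against 142, 126 and 136 FPKM in siControl libraries. It overlapped as deposited (log2 fold change -0.09, 95% interval -0.21 to 0.03) and was called lower after TMM scaling (-0.22, limma adjusted p = 0.00755). KIF20A, a midzone kinesin gene, rose by a log2 fold change of 0.16, while PRC1, the bundler of midzone microtubules, and ECT2, which activates RhoA at the furrow, had 0.06 and 0.08 and did not pass. After TMM scaling KIF20A was at 0.03, PRC1 at -0.07 and ECT2 at -0.05, with no call.

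MKI67 encodes Ki-67, which coats mitotic chromosomes and is the classic proliferation marker. It had 20.6, 18.5 and 19.95 FPKM in siOXTR libraries, against 24.9, 20.8 and 20.7 FPKM in siControl libraries. All siOXTR libraries were lower, but siControl replicate 1 stood above the other two. As deposited the log2 fold change was -0.16 (limma adjusted p = 0.0811), and without siControl replicate 3 it passed (-0.20, adjusted p = 0.0434). With a replicate block it also passed (limma adjusted p = 0.0336). After TMM scaling it was -0.29 (adjusted p = 0.00718) and was called with each library left out. TOP2A, the topoisomerase gene that untangles chromatids, had 126, 121 and 124 FPKM in siOXTR libraries, against 128, 119 and 124 FPKM in siControl libraries. The groups overlapped fully as deposited (log2 fold change -0.0020, 95% interval -0.11 to 0.11), and after TMM scaling the value was -0.14 (adjusted p = 0.0526).

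**Figure D3:**
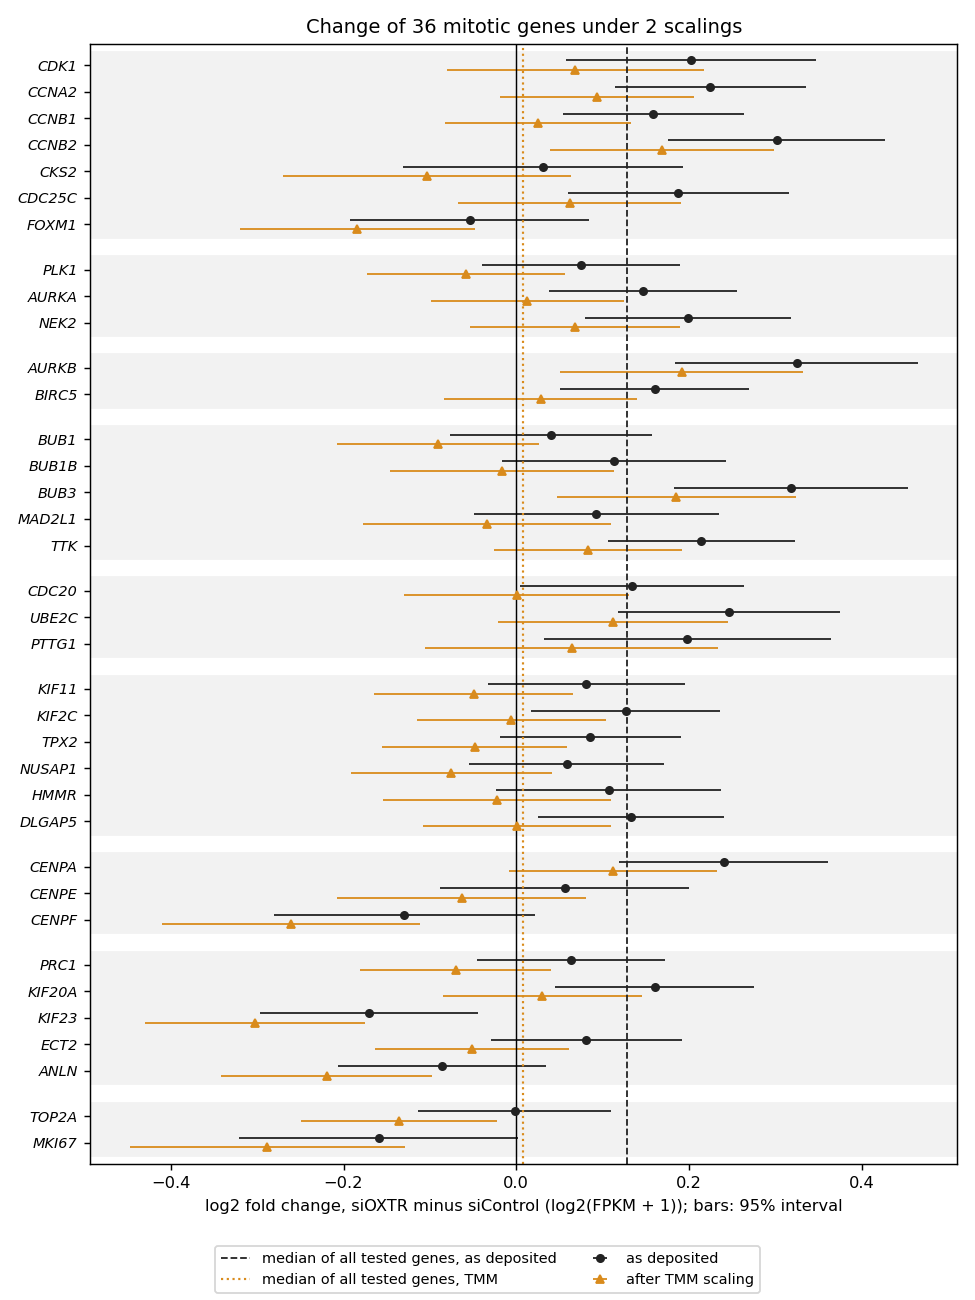
Log2 fold change, siOXTR minus siControl, of each mitotic gene with its 95% interval, from the deposited FPKM (circles) and after TMM scaling (triangles), with dashed and dotted lines at the medians of all tested genes (0.13 and 0.01). The triangles lie to the left of the circles in every row, 17 members are called higher by the circles and 3 by the triangles, and KIF23, CENPF, ANLN, MKI67 and FOXM1 are called lower by the triangles.

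Across the 36 genes the fold change was lower in genes with longer transcripts. Length was taken from the GENCODE release 29 transcript with the longest coding sequence of each gene, which need not be the one the cells used. The 18 shorter members, of 613 to 2973 bases, had a median log2 fold change of 0.17, with 14 higher and none lower. The 18 longer members, of 3010 to 12678 bases, had a median of 0.07, with 3 higher (BUB3, TTK and KIF20A) and 1 lower. Among all tested genes of any length 42.2% were higher and 17.6% lower. These counts are from the deposited values and were not made by length after TMM scaling, where 3 of the 36 were higher and 5 lower. Pearson's r between log10 length and log2 fold change was -0.52 (Spearman's rho -0.57) over the 36 genes, which share libraries and are not independent. Over 11480 tested genes with a length it was -0.21 (rho -0.25). Libraries of one group also differed with length, in either direction. For siControl replicate 2 minus replicate 1, r was -0.55 over the 36 genes and -0.34 over all tested genes with a length. It was -0.59 for siOXTR replicate 2 minus replicate 1 over the 36 genes, -0.080 for siControl replicate 3 minus replicate 2 and 0.49 for siOXTR replicate 3 minus replicate 2. MKI67 and CENPF, the longest, were among the 3 lowest in the comparison of groups and were also lower in siControl replicate 2 than in siControl replicate 1. The part of length in the changes was not tested.

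**Figure D4:**
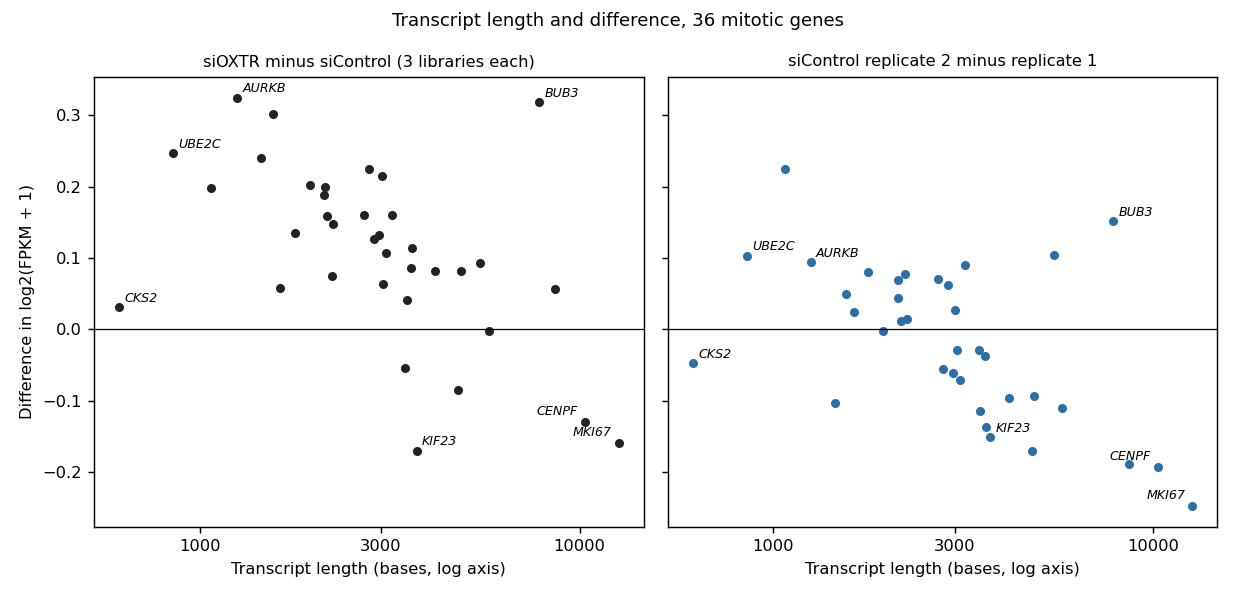
Difference in log2(FPKM + 1) of each mitotic gene against transcript length in bases on a log axis, for siOXTR minus siControl (left) and for siControl replicate 2 minus replicate 1 (right). Both panels slope down, with r of -0.52 and -0.55, MKI67 and CENPF lie at the long end of each, and BUB3 lies above the slope in each.

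Other genes of mitosis, from 9 lists that do not share members with the 36, gave counts close to theirs. Of 115 tested genes 51 rose and 3 fell (44.3% and 2.61%, median 0.13), against 42.2% and 17.6% of all tested genes. After TMM scaling 13 were higher and 15 lower (11.3% and 13%, median 0.01), against 18.3% and 24.9%. Subunits and partners of the APC/C rose in 11 of 17 cases and fell in none, with 2 higher after TMM scaling, and were led by ANAPC11, ANAPC10, ANAPC13 and UBE2S at log2 fold changes of 0.42, 0.34, 0.33 and 0.31. Kinetochore and centromere genes rose in 19 of 32 cases and fell in none, and after TMM scaling 6 were higher and 3 lower. MIS12, which encodes part of the core kinetochore, was at 19.0 ± 0.440 FPKM in siOXTR libraries and 12.7 ± 2.03 FPKM in siControl libraries (SD, n = 3 each), with a log2 fold change of 0.56, larger than that of any of the 36. CENPM, PMF1 and CENPN followed at 0.42, 0.41 and 0.37. PMF1 also forms read-through transcripts with its neighbour, so its value is uncertain.

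Condensin subunits rose in 1 of 8 cases, NCAPG at 0.24, and after TMM scaling 2 were lower. Cohesin and separase genes rose in 5 of 12 cases and fell in 1, led by STAG1 and STAG2 at 0.28 and 0.21, ESPL1 (separase) at 0.20 and SMC1A at 0.19, with 1 higher and 2 lower after TMM scaling. Other spindle genes rose in 5 of 16 cases, among them SPAG5, STMN1 and CKAP2 at 0.27, 0.27 and 0.19, and KIF18A, a kinesin that damps chromosome movement, fell by 0.29 on the log2 scale. With TMM scaling 1 of the 16 was higher and 3 were lower. Centrosome genes rose in 2 of 9 cases, CEP152 at 0.32 and SASS6 at 0.26, with 1 higher and 1 lower after TMM scaling. Cytokinesis genes rose in 3 of 7 cases, RHOA, CHMP4B and SEPTIN2 at 0.20, 0.19 and 0.17, and none was called after TMM scaling. The shares of rises in these lists, in the order given, were 12.5%, 41.7%, 31.2%, 22.2% and 42.9%, against 42.2% of all tested genes. Falls made up at most 8.33% of a list, against 17.6%. After TMM scaling 18.3% of all tested genes were higher and 24.9% lower.

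Genes that set the time of mitotic entry rose in 5 of 12 cases and fell in 1 (41.7% and 8.33%). The shares of all tested genes were 42.2% and 17.6%, so the share of rises was near the background. After TMM scaling 2 were higher and 2 lower (16.7% each), against 18.3% and 24.9% of all tested genes. CDC25B, a CDK1-activating phosphatase gene, had 125, 125 and 119 FPKM in siOXTR libraries, against 92.0, 99.0 and 89.9 FPKM in siControl libraries (log2 fold change 0.39, limma adjusted p = 9.06e-05). ENSA, which encodes an inhibitor of the phosphatase that opposes CDK1, rose by a log2 fold change of 0.45. The kinases that hold CDK1 inactive went opposite ways. WEE1 rose by a log2 fold change of 0.25, whereas PKMYT1 was at 48.0 ± 3.53 FPKM in siOXTR libraries and 60.9 ± 5.99 FPKM in siControl libraries (SD, n = 3 each; log2 fold change -0.34, limma adjusted p = 0.00217). After TMM scaling ENSA, CDC25B and PKMYT1 were still called (0.32, 0.26 and -0.47) and WEE1 was not (0.11, limma adjusted p = 0.0885).

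Among the transcriptional regulators of the DREAM, B-MYB, E2F and NF-Y list 10 of 23 rose and 2 fell (43.5% and 8.7%). This compares with 42.2% and 17.6% of all tested genes, so the share of rises was near the background and that of falls below it. After TMM scaling 2 were higher and 3 lower, both smaller shares than the 18.3% and 24.9% of all tested genes. MYBL2, which encodes B-MYB, had 128, 128 and 121 FPKM in siOXTR libraries, against 107, 121 and 106 FPKM in siControl libraries (log2 fold change 0.18, limma adjusted p = 0.0201; 0.05 and adjusted p = 0.534 after TMM scaling). E2F6, a repressor gene, and NFYC, an NF-Y subunit gene, rose by log2 fold changes of 0.47 and 0.44, E2F5 by 0.25, and the activator gene E2F2 fell by 0.25 on the log2 scale. E2F1, the activator of G1/S genes, had a log2 fold change of -0.09 as deposited (limma adjusted p = 0.158) and -0.23 after TMM scaling (adjusted p = 0.00572).

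The CDK inhibitors and cell stress genes rose in 8 of 13 tested genes (61.5%) and fell in none, against 42.2% and 17.6% of all tested genes. After TMM scaling 4 were higher and 1 lower (30.8% and 7.69%), against 18.3% and 24.9%. CDKN1A, which encodes the CDK inhibitor p21, had 33.1, 34.9 and 32.4 FPKM in siOXTR libraries, against 25.4, 27.6 and 22.8 FPKM in siControl libraries. The groups did not overlap (log2 fold change 0.40, SE 0.069, limma adjusted p = 0.00044), and after TMM scaling the value was 0.27 (adjusted p = 0.00758). MDM2, a ubiquitin ligase gene, CDKN2B (p15) and CDKN1B (p27) rose by log2 fold changes of 0.37, 0.38 and 0.36.

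The DNA replication and G1/S genes, the list closest to the mitotic genes in the cell cycle, gave other counts. Of 44 tested genes 6 rose and 14 fell (13.6% and 31.8%, median -0.07), against 17 and 1 of the 36 mitotic genes (47.2% and 2.78%, median 0.12). Among all tested genes 42.2% rose and 17.6% fell, so the share of rises was near the background for the mitotic genes and below it here. With TMM scaling 26 were lower and 1 was higher (59.1% and 2.27%, median -0.20). Of the mitotic genes 5 were then lower and 3 higher (13.9% and 8.33%, median -0.01), and of all tested genes 24.9% and 18.3%. GINS4, which encodes a subunit of the replicative helicase complex, had 17.8, 17.4 and 17.0 FPKM in siOXTR libraries, against 27.9, 26.9 and 27.0 FPKM in siControl libraries (log2 fold change -0.62, limma adjusted p = 1.08e-06). MCM3, another helicase subunit gene, and RFC5, a clamp loader gene, dropped by 0.49 and 0.45 in log2 units. RRM2, the ribonucleotide reductase subunit gene, went the other way at 66.2 ± 2.63 FPKM in siOXTR libraries and 47.8 ± 2.09 FPKM in siControl libraries (SD, n = 3 each; log2 fold change 0.46). The difference between both lists was not tested, and the changes of these 4 genes exceed every change among the 36 mitotic genes in size.

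**Figure D5:**
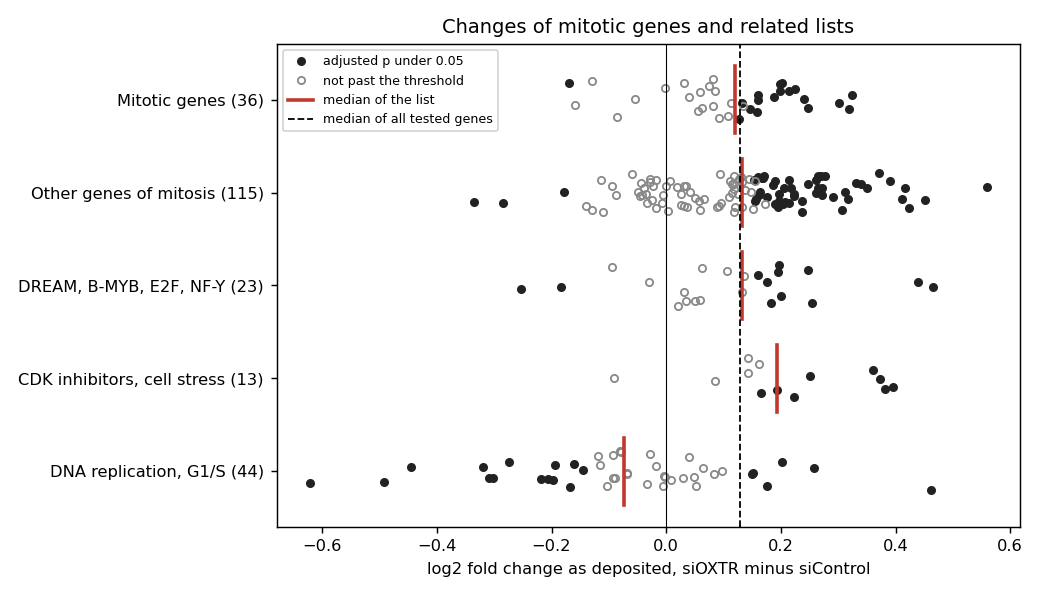
Log2 fold change as deposited, siOXTR minus siControl, of every tested gene of 5 lists, filled where limma's adjusted p was under 0.05, with the median of each list as a bar and that of all tested genes (0.13) as a dashed line. The mitotic genes and the other genes of mitosis have medians of 0.12 and 0.13, next to the dashed line, and the DNA replication and G1/S genes have a median of -0.07.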

How the data were processed

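The 6 SNU216 libraries follow BGISEQ-500 protocols, per the labels. The deposited values are FPKM per gene, made by the authors, per the file headers. GRCh38.p13 is the build in the submitters' processing notes. What aligned the reads, how fragments were assigned to genes and whether strand was used was not given in the sources used here, so overlapping genes cannot be told apart. Low values showed no clear steps of whole fragments (best coherence 0.156 to 0.233 of a possible 1), so depth is unknown. FPKM summed to between 446246 and 459595 in siOXTR libraries and between 417829 and 434167 in siControl libraries. FPKM is relative, so a fall in some genes raises others.

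Values entered limma 3.58.1 (R 4.3.3) as log2(FPKM + 1) for the 11550 genes whose mean reached 1 FPKM (group only, mean trend, robust prior, two-sided, Benjamini-Hochberg over all of them, threshold 0.05). Fold changes on this scale understate those of low genes. TMM factors were computed from the FPKM columns with the method's usual trims and no count model. The test was run on simulated data with independent noise for each gene and no library-wide or length-linked differences. That run therefore cannot show how the test behaves under the differences in scale and length described above. An exact test of 3 against 3 libraries could not go below 0.1. Ratios are of mean FPKM. The members and lists were chosen with earlier results of these data known. Genes named are OXTR, all members, up to 4 called genes with the largest change of each other list, and MYBL2, E2F1, CDKN1A and MDM2. A further gene that the rule names for its role is not reported here. INCENP, CDCA8, KRT8, KRT18 and CD3E were named after their values were seen. Libraries of a group shared at most 0.606% of values, so each counted once. Alternatives were another pseudocount, other filters, TMM, a common library sum, limma without trend and robust prior, a replicate block, and leaving out each library.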

Additional observations from a re-analysis of the deposited data

How the results depend on the processing

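The result turns on scaling. TMM scaling gave 3 mitotic genes higher and 5 lower (median log2 fold change -0.011), and scaling each library to a sum of 1000000 gave 4 and 4 (median 0.037), in place of 17 and 1 (median 0.12). Over all tested genes the count higher was 2111 with TMM scaling and 2943 with the common sum, in place of 4869. The count lower was 2872 and 2514, in place of 2036. With TMM scaling 13 members changed sign, none of them called under that scaling, with log2 fold changes of CKS2 -0.103, PLK1 -0.058, BUB1 -0.091, BUB1B -0.016, MAD2L1 -0.034, KIF11 -0.049, KIF2C -0.0056, TPX2 -0.048, NUSAP1 -0.075, HMMR -0.022, CENPE -0.063, PRC1 -0.070 and ECT2 -0.051. With the common sum 8 did, with CKS2 -0.055, PLK1 -0.010, BUB1 -0.044, KIF11 -0.0021, NUSAP1 -0.027, CENPE -0.022, PRC1 -0.022 and ECT2 -0.0035. With each library left out in turn 9 to 15 members were higher, 0 to 2 lower, and the median lay between 0.11 and 0.14. In the same fits 3976 to 4671 of all tested genes were higher and 1819 to 2020 lower. CKS2 was at -0.00065 without siControl replicate 1 and -0.024 without siControl replicate 2, and TOP2A lay between -0.031 without siControl replicate 2 and 0.024 without siControl replicate 1. Leaving out libraries with TMM scaling, an alternative chosen after seeing the data, gave 0 to 3 higher and 4 to 5 lower, with medians of 0.010 without siOXTR replicate 1, -0.0082 without siOXTR replicate 2, -0.027 without siOXTR replicate 3, -0.015 without siControl replicate 1, -0.019 without siControl replicate 2 and -0.012 without siControl replicate 3. A filter of mean FPKM above 0 or limma without trend and robust prior gave 14 higher, and a pseudocount of 0.1 or a minimum of 5 FPKM gave 17, each with 1 lower. Over all genes tested in each fit 4622, 4823, 4856 and 4199 were higher, in that order, and 2142, 2036, 2032 and 1604 lower.

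Libraries with the same replicate number correlated in their deviations from the group means at r = 0.107, 0.0042 and 0.160. For unlike numbers r ran from -0.310 (siOXTR replicate 1 with siControl replicate 3) to 0.208 (siOXTR replicate 1 with siControl replicate 2). The numbers were not taken as pairs. A fit with the replicate block gave 16 members higher and 2 lower, and 5100 of all tested genes higher and 2105 lower. MKI67 was then called lower (limma adjusted p = 0.0336) and KIF2C lost its call (limma adjusted p = 0.0585). The block with TMM scaling gave 3 higher and 6 lower, and 2404 of all tested genes higher and 3018 lower. Each replicate number occurs once in each group, so a block leaves every fold change, and the median of -0.011, as it was. Only the p-values can differ. Depth is unknown, so the counting error of low genes cannot be given. The causes of these differences were not tested.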
